A study of Mus musculus with 12 samples.

Results

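The 7 genes described here encode parts of the antibody molecule that do not vary between cells: Ighm and Ighd, which encode the constant regions of the mu and delta heavy chains, Igkc, which encodes that of the kappa light chain, Iglc1, Iglc2 and Iglc3, which encode those of the lambda light chains, and Jchain, which encodes the joining chain. They were taken by symbol from the gene list of the count tables, where each of the 7 matched 1 row of 32285 genes. The samples were livers of C57BL/6 mouse pups, dissociated to single cells and profiled with 1 droplet library per mouse. In the anemia group, 20 µL of blood per g of body weight was drawn from the facial vein every other day from postnatal day 2 to day 10, and the liver was taken on day 11; the control group was handled in the same way and had a needle stick without blood loss. Each group held 6 mice, pups of a litter were assigned to a group at random, and the litter of each library was not given. A mouse is therefore the replicate throughout, and mice are called by group and number.

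An antibody is built from paired heavy and light chains. A B cell precursor first rearranges a heavy chain gene and pairs the mu chain with a surrogate light chain made of the products of Vpreb and Igll1; it then divides, stops dividing, and rearranges a kappa or a lambda light chain gene. The mu chain appears on the surface of the immature B cell as IgM, and delta is added by alternative splicing of the same long transcript as the cell matures. A cell that becomes an antibody-secreting plasma cell makes very large amounts of heavy and light chain transcript, and joining chain, which links IgM into pentamers and IgA into dimers. The liver is a site of B cell formation before and shortly after birth.

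In the GRCm38 build of the mouse genome, with GENCODE annotation, Ighm lies on the minus strand at chr12:113418558-113422730 and Ighd follows it downstream on the same strand at chr12:113406604-113416324. Igkc lies on the plus strand at chr6:70726435-70726966. The lambda genes lie on the minus strand of chromosome 16, Iglc1 at chr16:19061618-19062071, Iglc3 next to it at chr16:19065230-19065681, and Iglc2 farther away at chr16:19198396-19200351. Jchain lies on the minus strand at chr5:88519809-88527891. All but Jchain are annotated as immunoglobulin constant genes, and their identifiers matched the count tables.

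Iglc2 and Iglc3 are close copies of one another and Iglc1 is less alike, which bears on how far their reads can be told apart. The first 30 coding bases of the constant exon of each are shown here on the coding strand, 5′ to 3′, with capitals at the positions that differ from Iglc2:
Iglc1: gCcagcccaagtcTTcGccATcAGtcaccC
Iglc2: gtcagcccaagtccactcccactctcaccg
Iglc3: gtcagcccaagtccactcccacActcaccA
These stretches are exonic and coding, at chr16:19062042-19062071, chr16:19198823-19198852 and chr16:19065652-19065681. Iglc1 differed from Iglc2 at 9 of these bases and Iglc3 at 2. Over the whole coding exon, Iglc2 and Iglc3 were 96.5% identical, with 11 of 314 bases different, whereas Iglc1 was 73.6% identical to Iglc2 and 74.5% to Iglc3. In the 3′ untranslated sequence, near which these 3′ libraries start to read, the identity was 90% for Iglc2 with Iglc3, 51.8% for Iglc1 with Iglc2 and 52.5% for Iglc1 with Iglc3. The split between Iglc2 and Iglc3 is therefore uncertain, because reads that fit both could have been lost or misassigned, while Iglc1 is easier to separate.

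Of 207537 deposited cell barcodes, 206146 were kept, 98075 from control and 108071 from anemic livers. A kept cell had 500 to 50000 unique molecular identifiers (UMIs, each standing for 1 captured transcript) and at most 50% of them from mitochondrial genes. Libraries held 46252146 to 74545930 UMIs and 14184 to 21186 kept cells, with a median of 1769 to 2889.5 UMIs per cell. A set of 4951 barcodes occurred in more than 1 library. A doublet caller scored the cells, and the highest-scoring share was marked, at a rate set in advance from each library's number of cells. The marked cells made up 13.6% of all kept cells, a share given by that setting, and 6.54% of B lineage cells. Of 300 planted doublets per library, 65.7% (anemia 5) to 78.7% (control 5) were recovered. Marked cells were kept and left out in an alternative. Immunoglobulin genes and Jchain were left out of the genes on which cells were clustered. Their UMIs still counted in each cell's total, by which the other genes were normalized. Clusters were named from marker lists that hold none of the genes left out, and the naming rules were set after the clusters had been seen.

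The B lineage held 42023 cells in 17 clusters. The pro-B-like class (2781 cells) was named from raised Igll1, Vpreb1 and Dntt, the cycling pre-B-like class (9148 cells) from proliferation genes such as Mki67 and Top2a, the small pre-B-like class (10107 cells) from Rag1, Il2ra and related genes, and the mature B-like class (14411 cells) from Ms4a1, Fcer2a and class II genes. A further 5576 B lineage cells in 4 clusters kept no stage name. Among them, B cluster 4 (2440 cells) was led by Hdac9 and Srpk3 and B cluster 9 (1774 cells) by Shisa8, Ahr and Ccnd2, while B clusters 13 and 16 carried hepatocyte and erythroid RNA. Plasmacytoid-like dendritic cells (3538 cells), whose 8 markers were all raised, were followed as well because they carried constant gene UMIs of an uncommon mix.

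Levels below are in CPM, the UMIs counted for a gene in the cells of 1 class and mouse for every 1000000 UMIs of those cells. Since the libraries count transcript 3′ ends, levels are compared for the same gene between classes, and different genes are set against each other only as shares or ratios of UMIs. B lineage cells held 84.06% of the 293675 Ighm UMIs, 85.69% of the 11479 Ighd UMIs, 88.03% of the 371143 Igkc UMIs, 87.94% of the 32885 Iglc1 UMIs, 89.5% of the 34315 Iglc2 UMIs, 75.9% of the 30013 Iglc3 UMIs and 82.74% of the 7122 Jchain UMIs. Droplet libraries can hold transcript that was free in the cell suspension, and it was not measured here. Cells that do not make antibody gave a level to read the members against: with each cell thinned to 500 UMIs, 5.86% of T cells had an Ighm UMI and 1.94% an Igkc UMI, against 69.04% and 78.08% of mature B-like cells. Unthinned, 21.46% of T cells (median 2006 UMIs) and 92.62% of mature B-like cells (median 1403 UMIs) had an Ighm UMI. That level was not the same in all such classes. Thinned Ighm shares were 5.52% in NK cells, 1.06% in hepatocytes and 0.49% in endothelial-like cells, and Ighm was at 178 CPM in T cells, 38.7 in hepatocytes and 10.3 in endothelial-like cells. Light chain UMIs per 100 Ighm UMIs were 78.4 in T cells and 180 in hepatocytes, higher in the latter in 11 of 12 mice (difference 102, two-sided exact sign-flip permutation test, adjusted p = 0.00122). T cells, the highest of these by Ighm, are the comparison used for the other members.

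Ighm was present from the earliest stage and its level changed little once cells had stopped dividing. Over the 12 mice its level was 908 ± 93.1 CPM (SD) in pro-B-like cells, 1936 ± 378 in cycling pre-B-like cells, 2986 ± 295 in small pre-B-like cells and 2847 ± 205 in mature B-like cells. Stages were compared within mice by a two-sided exact sign-flip permutation test of log2(CPM + 1), with p-values adjusted over 30 comparisons by the Benjamini-Hochberg method; 0.000488 is the smallest p that 12 mice can give, and it becomes 0.000666 after adjustment. Ighm rose 2.11-fold from pro-B-like to cycling pre-B-like cells and 1.56-fold from there to small pre-B-like cells, in 12 of 12 mice each time (adjusted permutation p = 0.000666). From small pre-B-like to mature B-like cells it fell by 0.07 on the log2 scale, with the mature cells higher in 1 of 12 mice (adjusted permutation p = 0.00543). Mouse values of these last stages overlapped, whereas every pro-B-like value (801 to 1088 CPM) lay above every plasmacytoid-like value (453 to 588 CPM) and these above every T cell value (130 to 279 CPM).

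Ighd was highest in mature B-like cells. Its level was 27.9 CPM in pro-B-like, 35.9 in cycling pre-B-like and 76.7 in small pre-B-like cells, and 255 ± 35.9 CPM (SD, n = 12 mice) in mature B-like cells, where the mice ranged from 203 to 333 CPM. The next class was B cluster 9 with 111 ± 31.5 CPM, whose mouse values (76.4 to 197) lay below that range. B cluster 13, which carried hepatocyte RNA, had a mean of 93.6 CPM but reached 261 CPM in 1 mouse. Ighd rose 2.10-fold from cycling to small pre-B-like cells and 3.30-fold from there to mature B-like cells, in 12 of 12 mice each time (adjusted permutation p = 0.000666). From pro-B-like to cycling pre-B-like cells the rise was 1.3-fold, in 10 of 12 mice (adjusted permutation p = 0.00507). As a share of Ighm and Ighd UMIs together, Ighd made up 3.01% in pro-B-like, 1.85% in cycling pre-B-like, 2.53% in small pre-B-like and 8.25% in mature B-like cells. The last step, 5.73 percentage points, was seen in 12 of 12 mice (adjusted permutation p = 0.000666). At 500 UMIs per cell, 12.07% of mature B-like cells and 0.17% of T cells had an Ighd UMI.

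Igkc overlapped the T cell level in pro-B-like cells and rose at every later stage. Its level was 103 ± 59.6 CPM in pro-B-like cells, which overlapped the 113 ± 50.1 CPM of T cells, and went to 1001 ± 279 CPM in cycling pre-B-like, 3436 ± 317 in small pre-B-like and 6255 ± 657 in mature B-like cells (SD, n = 12 mice). The later steps were 3.51-fold and 1.82-fold, and every step was seen in 12 of 12 mice (adjusted permutation p = 0.000666); the first started at the T cell level, so no fold is given for it. The mature B-like and small pre-B-like mouse values did not overlap. The cycling pre-B-like level, on which the 3.51-fold rests, differed between clusters. B cluster 12 had 206 ± 51.0 CPM, and B clusters 3, 6 and 7 had 1181 ± 125, 1486 ± 154 and 1540 ± 1425 CPM. Light chain UMIs of all 4 genes per 100 Ighm UMIs went from 12.7 in pro-B-like cells to 52.2 in cycling pre-B-like, 138 in small pre-B-like and 286 in mature B-like cells, again rising in 12 of 12 mice at each step (adjusted permutation p = 0.000666). B cluster 4, with 272 light chain UMIs per 100 Ighm UMIs, lay near mature B-like cells by this ratio although its Ighd level was 77.2 CPM.

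The lambda genes came later than Igkc. Iglc1, Iglc2 and Iglc3 were at 10.1, 3.70 and 3.85 CPM in cycling pre-B-like cells and at 8.00, 3.34 and 4.6 CPM in pro-B-like cells, and none of these differences passed the test (adjusted permutation p = 0.981, 0.0785 and 0.711). The cycling Iglc1 mean rested on anemia 3, at 82.0 CPM; the median was 3.27 and the next mouse had 9.95 CPM. In small pre-B-like cells they were at 263, 153 and 242 CPM, higher than in cycling pre-B-like cells in 12 of 12 mice each (adjusted permutation p = 0.000666). No fold is given for this step, because the cycling and pro-B-like values overlapped those of T cells, which were at 9.55, 13.2 and 6.29 CPM. From there to mature B-like cells Iglc1 rose 2.64-fold to 679 CPM, Iglc2 4.93-fold to 747 CPM and Iglc3 1.94-fold to 463 CPM, each in 12 of 12 mice (adjusted permutation p = 0.000666). The small pre-B-like levels, on which these folds rest, differed widely between clusters. B cluster 0, the largest of the class, had 54.5, 32.1 and 114 CPM. B cluster 5 had 826.5, 492 and 554 CPM, and B cluster 14 had 484, 221 and 405 CPM.

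**Figure D1:**
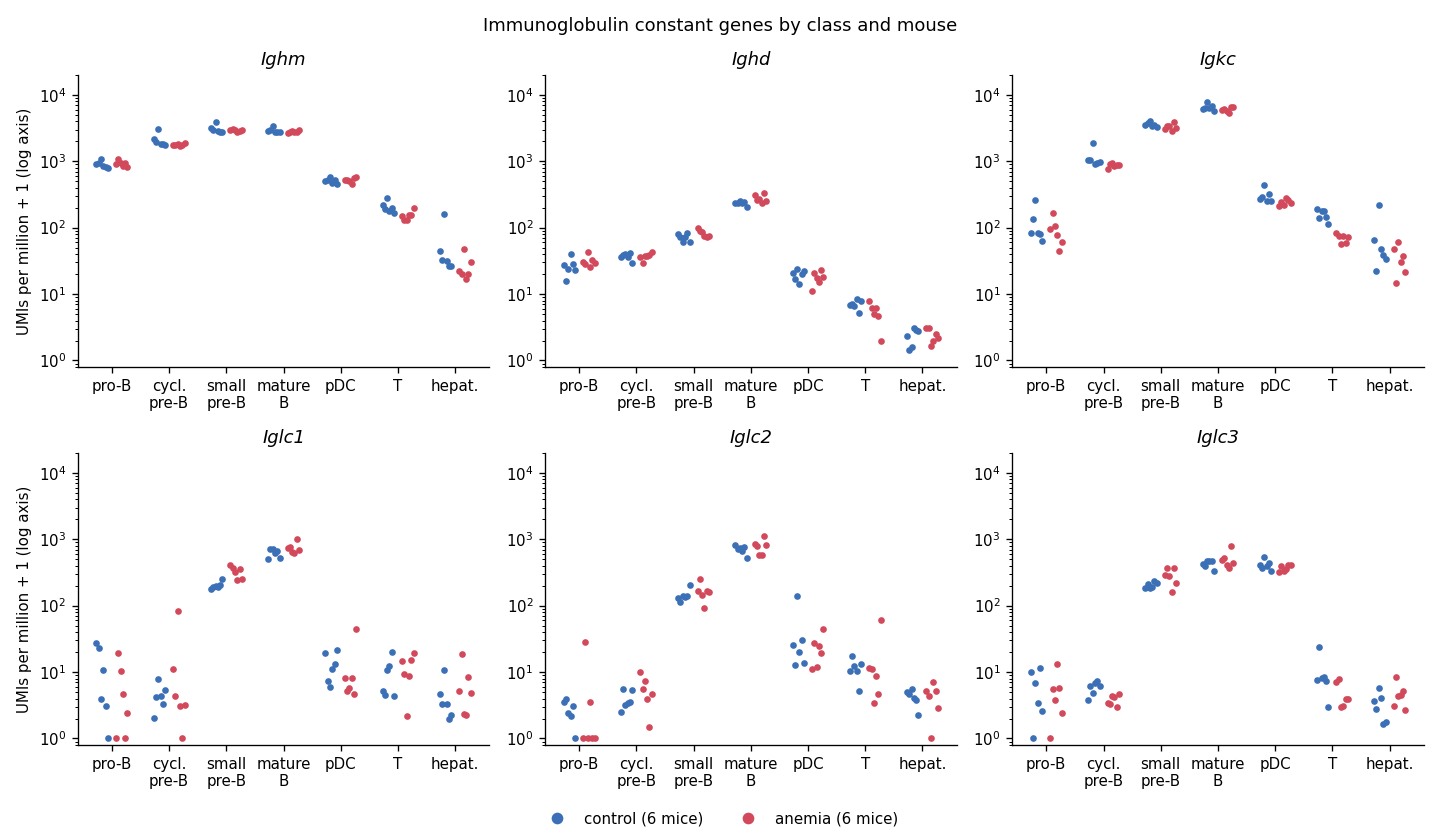
Level of each constant gene (CPM plus 1, log axis) in pro-B-like, cycling pre-B-like, small pre-B-like, mature B-like, plasmacytoid-like (pDC), T and hepatocyte classes, with 1 point per mouse (6 control, 6 anemia). Ighm is high from the pro-B-like stage on, Ighd peaks in mature B-like cells at 203 to 333 CPM, Igkc starts to rise in cycling pre-B-like cells, and the lambda genes rise between cycling and small pre-B-like cells; Iglc3 alone has plasmacytoid-like values in the range of the mature B-like ones.

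The lambda share, the percent of light chain constant UMIs that came from Iglc1, Iglc2 or Iglc3, followed from these steps. It was 1.76% ± 2.30 in cycling pre-B-like, 16.01% ± 3.70 in small pre-B-like and 23.1% ± 3.07 in mature B-like cells (SD, n = 12 mice), with rises of 14.3 and 7.10 percentage points in 12 of 12 mice (adjusted permutation p = 0.000666). The small pre-B-like value rested largely on B cluster 5, 1 of its 3 clusters. B cluster 0, the largest of the class, had a share of 5.24%, and without B cluster 5 the class had 6.10% in control and 10.4% in anemic mice, in place of 13.4% and 18.7%. The cycling mean was raised by anemia 3, at 8.81%, where the median mouse had 1.13% and the next 2.70%. In pro-B-like cells it was 12.7% ± 9.43, on few UMIs. Single cells with at least 10 light chain UMIs showed how the chains divide between cells. In the cycling pre-B-like class, 851 of 884 such cells had at least 90% Igkc (96.27%). In the small pre-B-like class, 1204 of 1632 had at least 90% Igkc, 93 had at least 90% lambda and 335 had a mix. In the mature B-like class, 3057 of 7095 had at least 90% Igkc (43.09%), 387 had at least 90% lambda (5.46%) and 3651 had a mix (51.46%), so most of these cells carried some UMIs of the other chain. How far free transcript and doublets make up such mixes was not tested.

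In 885 of the 7095 mature B-like cells (12.47%), lambda UMIs outnumbered Igkc UMIs. Sorted by their leading lambda gene, 392 were led by Iglc1, which gave 77.65% of the lambda UMIs in them, 376 by Iglc2 with 71.92% and 117 by Iglc3 with 70.81%. These shares are of UMIs summed over the cells, and being led by a gene is how the cells were sorted, so they are a description. Iglc3 gave 13.91% of the lambda UMIs in cells led by Iglc2, and Iglc2 gave 15.79% in cells led by Iglc3.

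Plasmacytoid-like dendritic cells, which secrete interferon and are not B cells, showed a lambda pattern of their own. Iglc3 was at 392 ± 57.7 CPM there (SD, n = 12 mice; lowest 325, median 396, highest 534), a range that overlapped those of small pre-B-like and mature B-like cells, while Iglc1 was at 12.0 and Iglc2 at 30.5 CPM. Iglc3 made up 91.1% ± 5.22 of lambda UMIs in these cells (79.1% to 95.5%), against 24.4% ± 1.60 in mature B-like cells. The difference of 66.6 percentage points was seen in 12 of 12 mice; the class and the share were picked after this mix had been seen, so it is a description without a test. In T cells Iglc1, Iglc2 and Iglc3 made up 35.1% ± 18.3, 41.3% ± 17.3 and 23.6% ± 13.4 of lambda UMIs, on few UMIs. The part of free transcript in the plasmacytoid-like values was not tested. The Iglc3 UMIs were spread over many cells: 1961 of 3538 cells had at least 1, the most in a cell was 13, and the 10 highest cells held 2.33% of all 4418. Among the 2531 of these cells with neither a Cd79a nor an Igkc UMI, 50.06% had Iglc3, 1.98% had Iglc2 and 72.15% had Ighm. Among 3033 cells not called doublets, 56.51% had Iglc3. At 500 UMIs per cell, 17.55% of plasmacytoid-like cells had Iglc3, close to the 16.13% of mature B-like cells and above the 0.16% of T cells. The plasmacytoid-like cells also held Ighm at 514 ± 44.3 CPM, between T cells and pro-B-like cells.

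**Figure D2:**
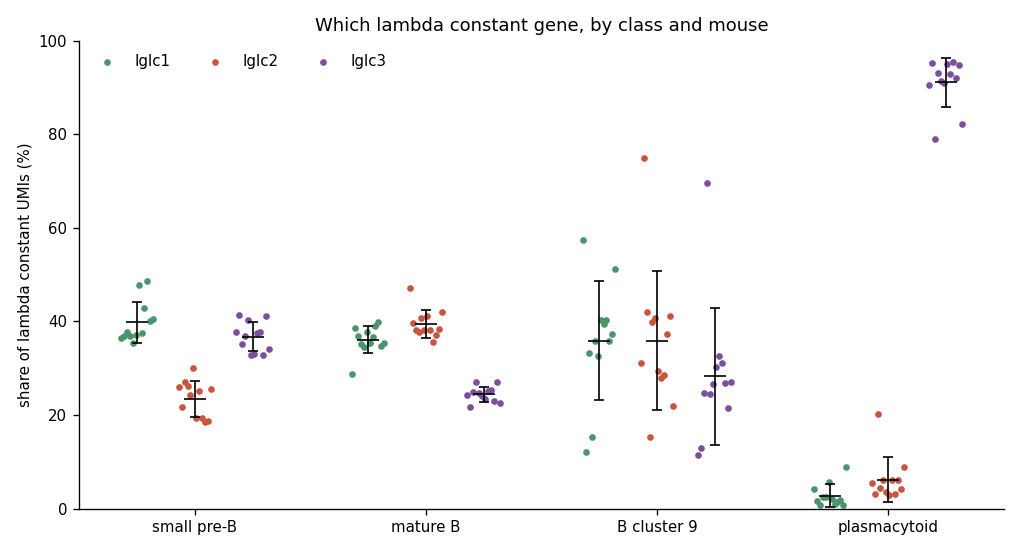
Share of lambda constant UMIs from Iglc1, Iglc2 and Iglc3 (percent, 1 point per mouse, line and bar for mean and SD over 12 mice) in small pre-B-like, mature B-like, B cluster 9 and plasmacytoid-like cells. The 3 genes share the lambda UMIs in small pre-B-like and mature B-like cells, whereas Iglc3 holds 79.1% to 95.5% of them in plasmacytoid-like cells. In B cluster 9 the shares vary widely between mice, and 1 gene, Iglc2, reaches 75.0% in 1 mouse.

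The main comparison asked whether constant gene use differed between anemic and control livers. The tests were of 2 kinds: a fit across all genes (edgeR's quasi-likelihood test on UMIs summed per mouse, Benjamini-Hochberg adjustment, called at an adjusted p under 0.05), and a two-sided exact permutation test over mice of 4 per-mouse values, adjusted over those 4, where 0.00216 is the smallest p that 6 mice against 6 allow. In mature B-like cells, none of the 7 members was called, where 2.21% of 10785 genes tested were (238 genes). The members' log2 fold changes, anemia over control, ranged from -0.70 to 0.27 with a median of 0.17, against 0.01 over all genes. Ighm was at 2919 ± 255 CPM in control and 2775 ± 122 in anemic mice (log2 fold change -0.07, edgeR adjusted p = 0.704), and Igkc had a log2 fold change of -0.12 (edgeR adjusted p = 0.544). Ighd had the lowest adjusted p, at 234 ± 16.2 CPM in control and 276 ± 39.3 in anemic mice (log2 fold change 0.24, SE 0.09, edgeR adjusted p = 0.159).

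The lambda share of mature B-like cells was higher in anemic mice. Control mice had a lowest, median and highest share of 19.2%, 21.9% and 22.3%, and anemic mice of 22.5%, 24.2% and 30.8%. Every anemic mouse lay above every control mouse, by a narrow margin at the nearest pair. The means were 21.2% ± 1.39 and 25.1% ± 3.10 (SD, n = 6 each), a difference of 3.91 percentage points (permutation p = 0.00216, adjusted 0.00866). Without anemia 5, the highest mouse, the difference was 2.78. With the unnamed B clusters 4 and 9 added to the class, the difference in lambda share was 0.51 (permutation p = 0.848). B cluster 9 holds 16 of the 19 cells rich in Jchain that are described below. A lambda gene led in 4 of these, all in control mice, 1 of them with 3899 Iglc2 UMIs. What they contribute to the 0.51 was not tested. When immunoglobulin genes were allowed into the clustering the difference was 2.96 (permutation p = 0.0563). At a coarser clustering resolution it was 3.52 (permutation p = 0.0844). Outside the B lineage, Igkc in T cells was at 157 ± 30.2 CPM in control and 69.9 ± 10.5 in anemic mice, and the lambda share of T cells was 15.2% ± 4.77 and 26.6% ± 14.6; what these UMIs contribute to the mature B-like values was not tested.

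The Ighd share of Ighm and Ighd UMIs in mature B-like cells was also higher in anemic mice. The lowest, median and highest shares were 6.88%, 7.48% and 8.04% in control and 7.61%, 8.71% and 10.9% in anemic mice, so the groups overlapped. The means were 7.45% ± 0.46 and 9.06% ± 1.38 (SD, n = 6 each), a difference of 1.61 percentage points (permutation p = 0.0152, adjusted 0.0202). With clusters made at a coarser resolution the difference was 1.43 (permutation p = 0.0693), and with B clusters 4 and 9 added to the class it was 2.59 (permutation p = 0.00649). B cluster 9 alone had Ighd shares of 1.95% ± 1.1 in control and 4.07% ± 2.3 in anemic mice. It holds most of the cells rich in Jchain, which had almost no Ighd, and their part in the 2.59 was not tested. Light chain UMIs per 100 Ighm UMIs were 283 ± 19.0 in control and 290 ± 34.1 in anemic mice, a difference well inside the spread (permutation p = 0.701, adjusted 0.701).

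Small pre-B-like cells, in which light chain genes are being rearranged, held the 1 constant gene that was called within a stage. Of 6 members tested, Iglc1 was called, where 2.79% of 9619 genes were. Its level had a lowest, median and highest value of 178, 192 and 249 CPM in control mice and 239, 336 and 413 CPM in anemic mice, with a small overlap. Iglc1 was 1.57-fold higher in anemic mice (log2 fold change 0.65, SE 0.11, edgeR adjusted p = 0.00105). Leaving out any 1 mouse gave log2 fold changes of 0.56 to 0.73, with adjusted p at most 0.00518. Iglc3 had a log2 fold change of 0.38 (edgeR adjusted p = 0.14), Iglc2 of 0.10 (0.836), Igkc of -0.14 (0.387), Ighm of -0.10 (0.592) and Ighd of 0.17 (0.534), none of them called. The lambda share of the class, tested after the Iglc1 value had been seen, was 13.4% ± 2.00 in control mice (lowest 11.5%, median 12.7%, highest 16.9%) and 18.7% ± 3.00 in anemic mice (14.7%, 18.4% and 22.4%). The difference was 5.33 percentage points (exact permutation p = 0.00866, adjusted over 8 classes and clusters 0.0231). It did not differ from the 3.91 points of mature B-like cells by an exact permutation test of the difference (1.41 points, p = 0.452).

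The lambda share was also compared between groups within each cluster of these stages. In B cluster 5, a small pre-B-like cluster led by Reln, Smoc1 and Rgs16, control mice had shares of 31.7% to 39.7% and anemic mice of 44.1% to 59.3%, with no overlap. The means were 35.7% ± 3.33 and 50.5% ± 5.75 (difference 14.7 percentage points, exact permutation p = 0.00216, adjusted 0.00866), and Iglc1 was at 589 ± 81.8 CPM in control and 1064 ± 211 in anemic mice. B cluster 0, the largest small pre-B-like cluster and led by Mast4, Il2ra and Rag1, had shares of 4.64% and 5.85% (exact permutation p = 0.0823, adjusted 0.11). In percentage points the differences of these clusters were 13.5 apart, from control shares that were themselves far apart. In the mature B-like class, B cluster 1, led by Ms4a1, had 16.96% in control mice (15.1% to 19.8%) and 22.8% in anemic mice (20.7% to 26.7%), with no overlap (adjusted exact permutation p = 0.00866). B cluster 11, led by S100a6, Lmo7 and Ly6a, had 32.8% and 29.2% (adjusted exact permutation p = 0.119). The differences of B clusters 1 and 11 were 9.42 percentage points apart. B cluster 5 was named from 3 raised small pre-B markers, but no gene of that list was among its 10 leading genes, and its score on the stellate cell list, which holds Reln, was 0.781 against 0.593 on the small pre-B list. With B cluster 5 left out of the class, an alternative added after the values were seen, Iglc1 had a log2 fold change of 0.98 (edgeR adjusted p = 0.0112) and the lambda share differed by 4.29 percentage points (exact permutation p = 0.0303). Both pairs of clusters were picked after their values had been seen, so their contrasts are descriptions. B clusters 2, 10 and 14 had differences of 2.44, 3.36 and 5.97 points (adjusted exact permutation p = 0.1, 0.327 and 0.0476). The mix of clusters in a stage differed as well: B cluster 5 made up 25.3% of small pre-B-like cells in control and 19.9% in anemic mice, and B cluster 14, with stress genes such as Gadd45g and Jun, 7.12% ± 2.71 and 15.2% ± 14.2. Of mature B-like cells, B cluster 1 made up 48.6% ± 2.93 and 40.6% ± 14.01, and B cluster 10, with heat shock genes such as Hspa1b, 6.18% ± 2.88 and 15.3% ± 16.9, with lambda shares of 26.4% and 29.7%. These cluster sizes were not tested, nor was their part in the lambda share of the whole stage.

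**Figure D3:**
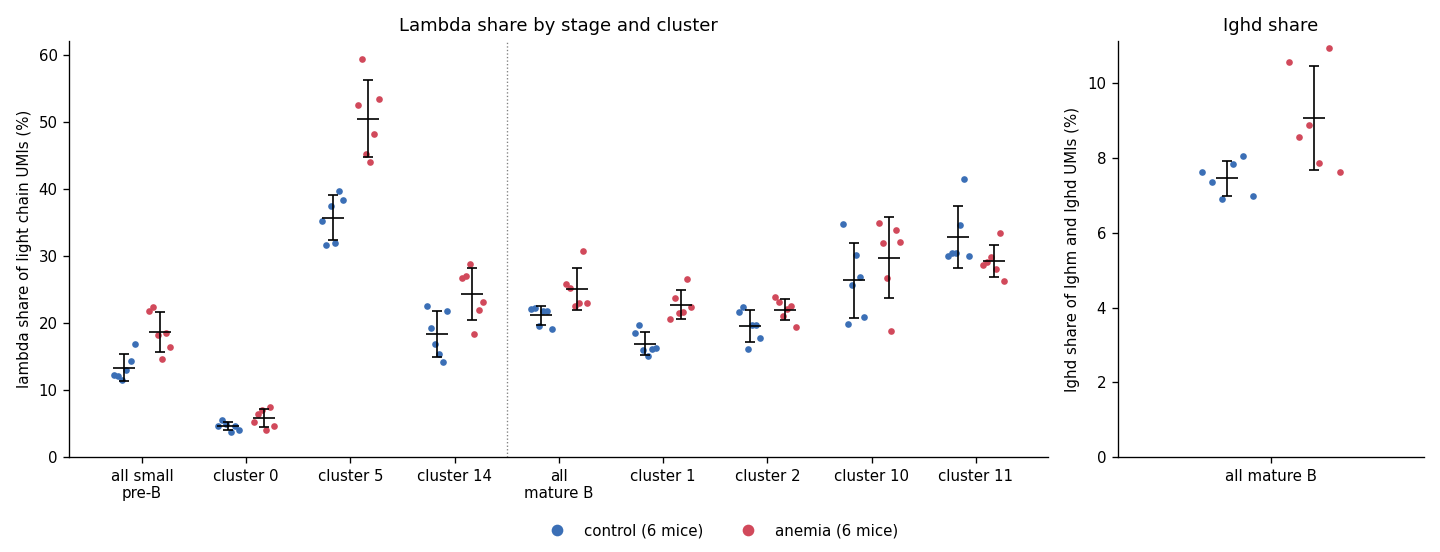
Lambda share of light chain UMIs by stage and B cluster, and Ighd share of Ighm and Ighd UMIs in mature B-like cells (percent, 1 point per mouse, line and bar for mean and SD, 6 control and 6 anemia mice). The groups do not overlap in all mature B-like cells (19.2% to 22.3% against 22.5% to 30.8%), in cluster 5 and in cluster 1, and overlap in all small pre-B-like cells, in the other clusters and in the Ighd share.

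In the other stages and in plasmacytoid-like cells no constant gene was called. Of 7 members tested in cycling pre-B-like cells none was called, where 1.32% of 11745 genes were. The lowest adjusted p belonged to Igkc (log2 fold change -0.40, edgeR adjusted p = 0.129), whose control values included 1 mouse, control 3, at 1848 CPM with the other 5 at 920 to 1051. A single cell rich in Jchain gave 3215 of the Igkc UMIs of that mouse; without cells rich in Jchain the log2 fold change was -0.22 (edgeR adjusted p = 0.0772). Of 4 members tested in pro-B-like cells none was called, where 0.622% of 9170 genes were, with log2 fold changes of 0.02 for Ighm (edgeR adjusted p = 0.982) and -0.45 for Igkc (0.662). Of 6 tested in plasmacytoid-like cells none was called, where 1.58% of 9836 genes were; Iglc3 there had 413 ± 69.5 CPM in control and 370 ± 36.6 in anemic mice (log2 fold change -0.16, edgeR adjusted p = 0.588). Over all B lineage cells summed, Ighd was the 1 member called of 7, where 1.52% of 14229 genes were (1.48-fold higher in anemic mice, log2 fold change 0.57, SE 0.13, edgeR adjusted p = 0.0389). That sum weighs stages by their cells, and leaving out 1 mouse gave log2 fold changes of 0.48 to 0.65; for 10 of the 12 mice left out the adjusted p was then above the threshold, at most 0.1.

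Genes that work with the constant chains were followed as 5 lists. Cd79a and Cd79b, which carry the signal of the B cell receptor, were called in no class. Of the surrogate light chain genes Igll1, Vpreb1, Vpreb2 and Vpreb3, 2 of 3 tested in small pre-B-like cells were higher in anemic mice, where 2.79% of all genes tested were called, Igll1 by 0.86 on the log2 scale (SE 0.20, edgeR adjusted p = 0.0148) and Vpreb1 by 1.14 (SE 0.26, edgeR adjusted p = 0.011). Both are also markers by which pro-B-like clusters were named, and with immunoglobulin genes kept in the clustering the log2 fold changes were 0.56 and 0.88 and neither was called (edgeR adjusted p = 0.0618 and 0.0972). Of the genes of the recombination machinery, Dntt, which adds bases at the joints, was higher in plasmacytoid-like cells of anemic mice by 1.84 on the log2 scale (SE 0.28, edgeR adjusted p = 0.00109). It was the 1 gene of that list tested there, where 1.58% of 9836 genes were called. Of 9 secretion genes tested in mature B-like cells, Pou2af1, a coactivator of immunoglobulin transcription, was higher by 0.50 (SE 0.07, edgeR adjusted p = 0.000986) and no other was called, where 2.21% of all genes were. Creld2, a chaperone of the endoplasmic reticulum, was the 1 secretion gene called over all B lineage cells, of 10 tested and where 1.52% of all genes were called (log2 fold change -0.46, SE 0.08, edgeR adjusted p = 0.0146); without the cells rich in Jchain it was -0.36 (edgeR adjusted p = 0.0605). Other heavy chain constant genes (Igha, the Ighg genes and Ighe) were mostly too low to test: 2 were tested over all B lineage cells, 1 in pro-B-like cells and 0 in the other classes, and none of those tested was called. Ighg2b UMIs lay mostly in pro-B-like cells, with 245 of 347 in 142 of 2781 cells, from 12 mice and with 13 at most in a cell; this gene was singled out after its values were seen.

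Jchain was unlike the other members: most of its UMIs sat in a handful of cells. Of 206146 cells, 602 had any Jchain UMI, and 534 of these had 1. The 19 cells with at least 10 Jchain UMIs, called Jchain-rich here, held 6460 of the 7122 UMIs (90.7%). They had a median of 338 and at most 1050 Jchain UMIs. The lowest had 10 and the next 56, whereas the highest cells below the limit had 9, and 4 cells had 5 to 9. Of the 19 cells, 16 lay in B cluster 9, 1 in the cycling pre-B-like class, 1 in the macrophage class and 1, the cell with 10 UMIs, in the mature B-like class. None shared its barcode with another library.

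The Jchain-rich cells carried Ighm and light chain UMIs at high levels. Constant gene and Jchain UMIs made up 2.78% to 69.0% of their UMIs, with a median of 38.1%, and at least 20% in 15 of the 19. Ighm was the leading heavy chain gene in 18 cells, with a median of 607 UMIs per cell over all 19. In 1 cell of control 5, Igha led with 207 UMIs, and Ighm had none. Ighd had no UMI in 18 of the 19 cells. Igkc was the leading light chain gene in 15 cells and a lambda gene in 4, all of them in control mice (Iglc1 in 2, Iglc2 in 1 and Iglc3 in 1). In 15 cells the leading light chain gene gave at least 90% of the light chain UMIs. The cell with the most Jchain UMIs, in control 2, had 1618 Ighm, 3899 Iglc2 and 450 Iglc3 UMIs and no Igkc UMI, and the cell of control 4 led by Iglc3 had 2776 Iglc3 and 7 Iglc2 UMIs. Light chain UMIs were thus mostly of 1 kind in a cell.

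Most genes of the antibody secretion list had UMIs in most of these cells. Mzb1, a chaperone for antibody assembly, had UMIs in 19 of the 19, Xbp1, the transcription factor of the secretory program, in 18, Txndc5 and Creld2, which help proteins fold, in 18 each, Tnfrsf17, a plasma cell receptor, in 13, Fkbp11 in 13 and Derl3 in 12. Pou2af1 had UMIs in 12 and Irf4 in 8. Prdm1, a regulator of plasma cell fate, had UMIs in 5 and Sdc1, a surface marker of plasma cells, in 4. Pax5, which keeps B cell identity, had none, and Ms4a1 and H2-Aa, genes of mature B cells, had UMIs in 6 each. Mki67 was seen in 7. As sums over cells, the 19 Jchain-rich cells had 1647 Xbp1, 8645 Mzb1 and 209 Tnfrsf17 CPM, and the other cells of B cluster 9 had 45.5, 601 and 0.15. On this scale Irf4 and Pou2af1 were not higher, with 69.7 and 171 CPM in the Jchain-rich cells and 117 and 174 CPM in the others. For Ms4a1 the values were 57.0 and 727 CPM. Constant gene and Jchain UMIs, a median of 38.1% of a Jchain-rich cell's UMIs, are part of the total, which lowers the CPM of other genes there. These sums describe cells chosen by Jchain and carry no test. The doublet caller marked 13 of the 19, which had a median of 8355 UMIs and a range of 3874 to 19923.

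**Figure D4:**
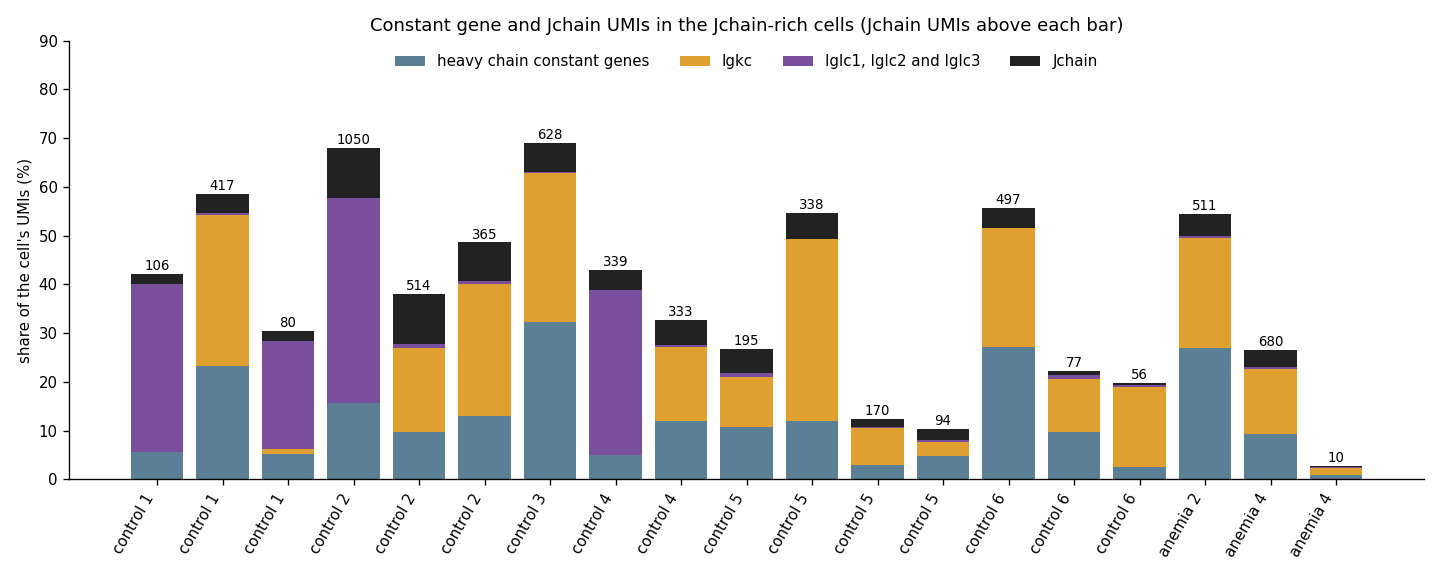
Share of each Jchain-rich cell's UMIs (percent, stacked bars) from heavy chain constant genes, Igkc, the lambda constant genes and Jchain, with the cell's mouse under the bar and its number of Jchain UMIs above it. The 19 cells come from 6 control and 2 anemic mice, most hold 1 kind of light chain, and their summed share runs from 2.78% to 69.0%.

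Jchain-rich cells were rarer in anemic livers. The 6 control mice had 3, 3, 1, 2, 4 and 3 such cells, and the anemic mice had 0, 1, 0, 2, 0 and 0. Every control mouse had at least 1 and 4 of the 6 anemic mice had none, though anemia 4 had as many as control 4 and the groups overlapped. Per 10000 kept cells control mice had 1.61 ± 0.58 and anemic mice 0.27 ± 0.45 (mean ± SD, n = 6 each), a difference of -1.34 (permutation p = 0.00433, adjusted 0.00866). Anemic mice gave 2005 to 4022 and control mice 3886 to 4524 B lineage cells; per 10000 B lineage cells the means were 6.36 and 1.34 (exact permutation p = 0.0108). With doublet calls left out, the means were 0.60 and 0.10 (exact permutation p = 0.0606). These counts are small, and 0 cells of the 15707 to 21186 kept in a mouse without any allow a share of up to 0.0191% to 0.0142%. Over all B lineage cells, Jchain had a log2 fold change of -2.26 (SE 0.95, edgeR adjusted p = 0.198), with 1 cell of anemia 2 giving 511 of the 538 Jchain UMIs of that mouse; without that mouse it was -6.56 (edgeR adjusted p = 1.54e-06). With any other mouse left out it was not called, with a change nearest to 0 of -1.83 without control 2 and a highest edgeR adjusted p of 0.301, and with the Jchain-rich cells left out it was -1.18 (edgeR adjusted p = 0.137).

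Outside the Jchain-rich cells, Jchain UMIs were thin and widely spread, and among named classes endothelial-like cells held the most of them by number. In their 23244 cells there were 285 UMIs in 267 cells, at most 3 in a cell and in all 12 mice, with none of these cells Jchain-rich. The level was not the highest: Jchain was at 4.00 CPM in mature B-like cells (mouse values 0 to 9.48; 3.37 as a sum without their Jchain-rich cell) and at 20.9 CPM in B cluster 11, which is part of that class. Jchain was at 2.15 CPM in endothelial-like cells, 1.14 in cholangiocytes and 1.08 in stellate cells with overlapping mouse values, and the Jchain UMIs per 1000 Ighm UMIs were 225 in endothelial-like cells, 14.8 in hepatocytes and 1.96 in T cells. At 500 UMIs per cell, 0.11% of endothelial-like cells, 0.12% of cholangiocytes, 0.06% of stellate cells and 0.02% of hepatocytes had a Jchain UMI. Unthinned, the shares were 1.15% of endothelial-like cells (median 3778 UMIs), 0.91% of stellate cells (55 of 6023, median 5620), 0.57% of cholangiocytes (4 of 699, median 5445), 0.74% of cells in unnamed clusters (87 of 11817, median 5619), 0.07% of hepatocytes (median 1215) and 0.07% of T cells (median 2006). The lowest, median and highest endothelial-like levels were 2.39, 3.24 and 3.50 CPM in control mice and 0.51, 1.00 and 2.37 CPM in anemic mice, which did not overlap, by a narrow margin. Jchain was 2.26-fold higher in control than in anemic mice (log2 fold change -1.17, SE 0.28, edgeR adjusted p = 0.0097). It was the 1 member called of 6 tested, in a class where 18.5% of 16224 genes were called, so a call was common there. The 6 members tested in this class had a median log2 fold change of -0.33, Cd79a and Cd79b of -0.41 and 3 surrogate light chain genes of -0.38, against 0.00266 over all genes, and none of them but Jchain was called. The part of B lineage transcript in the Jchain value was not tested. The fit was added after these UMIs had been seen. The endothelial-like clusters 3, 7 and 36 each had the same order, with 2.21, 3.91 and 3.54 CPM in control and 0.89, 1.35 and 1.69 CPM in anemic mice. Clusters 32 and 52 of this class, with 2 and 9 Jchain UMIs, were not compared between groups. Leaving out any 1 mouse gave log2 fold changes of -1.43 to -0.997, with adjusted p at most 0.0243. Of the secretion genes, Xbp1 was higher in anemic mice in this class by 0.31 (SE 0.08, edgeR adjusted p = 0.0166) and none was lower, of 9 tested.

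**Figure D5:**
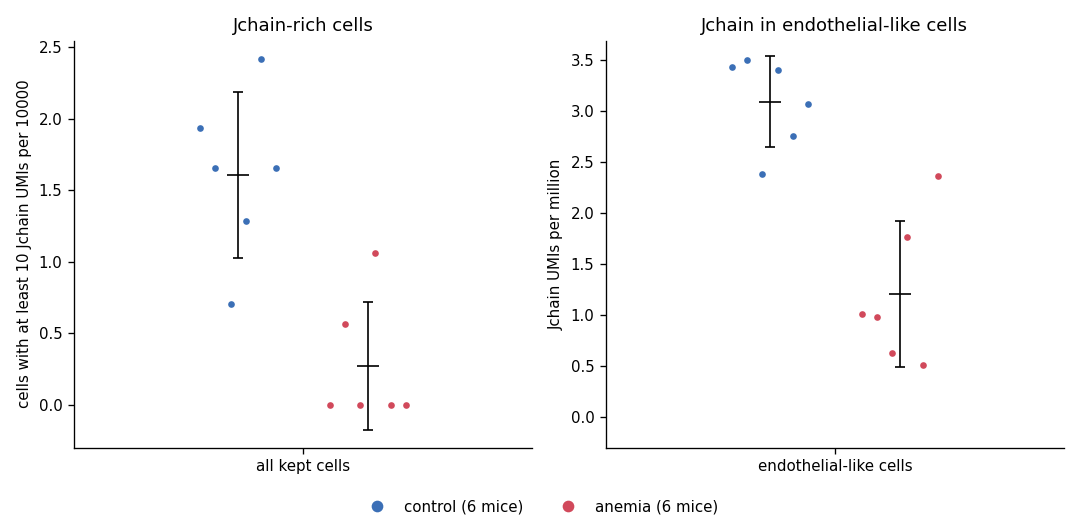
Jchain-rich cells per 10000 kept cells, and Jchain level in endothelial-like cells (CPM), with 1 point per mouse and line and bar for mean and SD (6 control, 6 anemia). The anemic mice have a mean of 0.27 against 1.61 cells, with overlap between the groups, and lie below every control mouse in the endothelial-like level.

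Across 17 named classes, the genes outside the immunoglobulin loci whose mean log2(CPM + 1) followed Ighm most closely, of 13941 compared, were Irf4 (Pearson r = 0.98), Siglecg (0.97) and Fam129c (0.95). For Ighd they were Il5ra (0.96), Srpk3 (0.95) and Tnfrsf13c (0.95), and for Igkc 2010309G21Rik (0.96), Gm30211 (0.95) and Srpk3 (0.94). Among the members, Ighm and Ighd had an r of 0.96 and Iglc1 and Iglc2 of 0.96, while Jchain stayed at 0.37 or lower with each of the others. B cluster 9 has no stage name and so was not among the 17 classes. It held 72.3% of the Jchain UMIs and, with its Jchain-rich cells, had the highest mean level of every member but Ighd. As a sum over its other cells, Ighm was at 2797 and Igkc at 5840 CPM. Both lay below the sums of mature B-like cells, 2834 and 6197 CPM, as did Jchain at 1.18 against 3.37. Iglc1, Iglc2 and Iglc3, at 884, 881 and 672 CPM, stayed above the mature B-like 680, 738 and 463. The genes nearest to Jchain were D6Wsu163e (0.86), Sfmbt1 (0.71) and Mrm2 (0.70), but its means in the cycling pre-B-like and macrophage classes rest on 1 cell each. The classes share libraries, depth and free transcript, so these values describe likeness over 17 points and carry no test.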

How the data were processed

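Livers of 6 control and 6 anemic mice were profiled with 1 droplet 3′ library each. The authors deposited gene by cell tables of raw UMI counts, made with Cell Ranger 7.0.0 per the file headers; mm10 is named in the submitters' processing notes, and whether intronic reads were counted is not given in the sources used here. The deposited tables were used as counts. Kept cells had 500 to 50000 UMIs and at most 50% mitochondrial UMIs. Cells were log-normalized and clustered (scanpy 1.11.5, leidenalg 0.10.2) on 2000 variable genes, 20 principal components and 20 neighbours, at resolution 2 for all cells and 1 for the B lineage, without immunoglobulin genes and Jchain. Scrublet marked doublets per library.

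Counts were summed per mouse and class and tested with edgeR 4.0.16 (R 4.3.3; TMM, quasi-likelihood) over genes that averaged 5 or more UMIs a mouse, without mitochondrial and ribosomal protein genes, with Benjamini-Hochberg adjustment over all genes tested in a class; limma voom with quality weights, which the study used in 1 joint fit over its own cell types, was an alternative, fitted here class by class. Tests per mouse were exact permutations over all assignments of mice or of signs, run in Python 3.11.15. The precision of a value rests on its UMIs and on 6 mice per group, or on 12 mice where stages were compared within mice. A p-value sets a difference against the spread of mice, or of differences within mice. In simulated counts with 200 of 10785 genes changed, each by at least 1 on the log2 scale, the mature B-like fit recovered 176 with 8 false calls. Smaller changes, such as those of the members in that class, were not simulated. The members and the gene lists were chosen with earlier results of these data known. Named genes were the 7 members, every gene of the 5 lists called in a class, and the 3 genes most like Ighm, Ighd, Igkc and Jchain. Cluster names, the fits of all B lineage and endothelial-like cells and the tests per cluster were added after the data had been seen. Gene positions and sequences came from GENCODE M21 on GRCm38. Alternatives covered other tools, filters, clusterings, doublets, a Y-linked covariate and each mouse left out.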

Additional observations from a re-analysis of the deposited data

Results flagged for a closer look

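Among 60 groups of 6 mice, 9 had a mouse whose gap to the nearest other exceeded Dixon's 95% critical share of the group's range. Chance gives about 1 in 20 groups. A group held a member's level in a class, or a per-mouse share, ratio or rate, and all 9 flags were in levels. The lambda genes of cycling pre-B-like and pro-B-like cells were not screened. In small pre-B-like cells these were Ighm in control 3, at 3847 CPM with the others at 2746 to 3153, and Iglc2 in control 6, at 202 CPM with the others at 111 to 141. In mature B-like cells they were Ighd in control 6, at 203 CPM below the others' 237 to 251, and Iglc1 in anemia 5, at 1002 CPM above 625 to 758. In cycling pre-B-like cells control 3 stood out in Ighm, at 3068 CPM above 1766 to 2150, and in Igkc, at 1848 CPM above 920 to 1051; without its 1 Jchain-rich cell the values were 2269 and 1084 CPM. In pro-B-like cells Igkc of control 3 was at 261 CPM above 61.4 to 132, and 1 cell held 53 of its 180 UMIs. In plasmacytoid-like cells Iglc1 of anemia 6 was at 43.8 CPM above 3.64 to 7.26, with 30 of 38 UMIs in 1 cell, and Iglc2 of control 3 was at 137 CPM above 11.8 to 29.1, with 89 of 112 UMIs in 1 cell.

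The difference in lambda share between anemic and control mice was larger in B cluster 5 than in B cluster 0 by 13.5 percentage points (14.7 against 1.22; exact permutation p = 0.00216) and larger in B cluster 1 than in B cluster 11 by 9.42 (5.81 against -3.61; exact permutation p = 0.00216). Both pairs were picked after seeing their values from 8 classes and clusters, the p-values are not adjusted for that choice, and the control shares of B clusters 5 and 0 were 35.7% and 4.64%; 0.00216 is the smallest p that 6 against 6 mice allow.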

How the results depend on the processing

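Of 513 alternative values over all results, 446 counted as unchanged. A number of called genes counted as unchanged when it stayed within a set ratio of the main number. Every other value had to keep its direction and its side of the threshold. The 1 value that reversed was light chain UMIs per 100 Ighm UMIs. It differed by -4.52 without anemia 5 (exact permutation p = 0.721), and by up to 14.2 with another mouse left out. With genes of at least 1 UMI tested, the calls were 625 in mature B-like, 416 in small pre-B-like, 402 in cycling pre-B-like, 138 in pro-B-like, 517 in plasmacytoid-like and 450 in all B lineage cells; with a mean of at least 50 UMIs they were 105, 163, 100, 29, 34 and 124. Without doublets, plasmacytoid-like calls were 97 and all B lineage calls 411; DESeq2 gave 663 and the Y-linked covariate 85 in all B lineage cells. Leaving out 1 mouse gave 157 to 294, 192 to 262, 99 to 159, 28 to 59, 80 to 183 and 59 to 1015 calls in these classes, in the same order, and 2174 to 3176 in endothelial-like cells; the 1015 came without anemia 6 and the 59 without control 1. The cause of these moves was not tested beyond the number of genes or mice. The lambda share of mature B-like cells differed by 3.52 at a coarser clustering resolution (exact permutation p = 0.0844), 2.96 with immunoglobulin genes in the clustering (0.0563) and 0.51 with B clusters 4 and 9 added (0.848). The 0.51 takes in the Jchain-rich cells of B cluster 9, whose part in it was not tested. With 1 mouse left out the lambda share differed by 2.78 to 4.42. The Ighd share differed by 1.43 at a coarser clustering resolution (exact permutation p = 0.0693) and by 1.24 to 1.90 with 1 mouse left out, Jchain-rich cells by -0.50 without doublets (exact permutation p = 0.0606) and by -1.52 to -1.18, and the small pre-B-like lambda share by 4.58 to 6.13. Whether mice of the same number in both groups share more than that number is not known. Their deviations correlated at 0.44, 0.08, -0.23, 0.39, 0.07 and -0.33, and 2 of 6 correlated best with their own number. So few pairs cannot decide it. With the number as a block, calls were 352 in mature B-like, 340 in small pre-B-like, 210 in cycling pre-B-like and 92 in pro-B-like cells. They were 255 in plasmacytoid-like, 256 in all B lineage and 2920 in endothelial-like cells. These were more calls than without the block in every class but the endothelial-like one. The small pre-B-like lambda share kept its difference of 5.33 with p = 0.0625 over paired exact sign flips, of which 64 allow no p below 0.0312. Under the block, Jchain over all B lineage cells and Igkc in cycling pre-B-like cells were called by edgeR (adjusted p = 0.0155 and 0.0404).

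Jchain over all B lineage cells was also called by limma voom (log2 fold change -6.35, adjusted p = 0.00489) and without doublets (-5.51, edgeR adjusted p = 0.0139), and Igkc in cycling pre-B-like cells without the filter (-0.42, edgeR adjusted p = 7.55e-08). Ighd over all B lineage cells was not called with the Y-linked covariate (0.55, edgeR adjusted p = 0.099), nor Igll1 with limma voom (0.68, adjusted p = 0.0779). Depth limits the lambda values of pro-B-like cells and every count of Jchain-rich cells.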
